A study of Homo sapiens with 18 samples.

Results

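The 35 genes described here form the NF-kB pathway and a set of its known target genes. They were chosen by symbol, as pathway components and textbook targets, with earlier results of these data known. All 35 were found among the 26249 genes that each library lists. The study measured RNA by 3' end sequencing in AMO1 and XG1, established human cell lines labelled multiple myeloma, which the series title groups as resistant lines. Each line was treated for 24 h with the solvent DMSO, with 100 nM or with 1000 nM of YKL-5-124, a covalent inhibitor of the kinase CDK7. Each of the 6 groups holds 3 libraries, 18 in all. No genetic change separates the groups within a line. The labels do not say whether the 3 libraries of a group came from separate cultures, so p-values measure only the spread between these libraries, which may be technical.

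NF-kB is a family of dimeric transcription factors that IkB proteins hold inactive in the cytoplasm. In the canonical route, receptors such as those for TNF activate the IkB kinase complex, IkB alpha is degraded, and dimers such as RELA with the NFKB1 product enter the nucleus. In the noncanonical route, TRAF3, TRAF2 and the BIRC2 and BIRC3 ubiquitin ligases keep the kinase MAP3K14 (NIK) low, and its release leads to processing of the NFKB2 product and to RELB dimers. Several inhibitors, among them NFKBIA, TNFAIP3 and BIRC3, are themselves targets, which closes feedback loops. In multiple myeloma, mutations of TRAF3, CYLD, the BIRC2 and BIRC3 locus or MAP3K14 are known to activate the pathway.

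Values are used as deposited, in FPKM, a unit that by definition scales read abundance for transcript length and library size. The 26249 genes summed to between 431965 and 1553906 FPKM in a library, whereas the 92 added ERCC spike-in RNAs summed to between 166717 and 187657. The deposited totals were thus not equal between libraries, and the sources used here do not say whether values were scaled to the spike-ins. The sums of the genes were lower in treated than in DMSO libraries of both lines. In AMO1 they were at least 1442943 in each DMSO library and at most 686266 at 1000 nM. In XG1 they were at least 1221590 in each DMSO library and at most 1146629 in the treated libraries. Every change is therefore given on 2 scales. The deposited scale uses the values as they stand, and the relative scale divides each library by a size factor, so that a change is read against the median gene. Fewer cells and less RNA per cell cannot be told apart in such bulk samples. A gene is called higher or lower where limma, on log2(FPKM + 1), gave a Benjamini-Hochberg adjusted p below 0.05 over all genes tested. Log2 differences on this scale understate the change of genes near or below 1 FPKM. Reads in this assay come from 3' ends while FPKM divides by transcript length, so levels are compared between groups and not between genes.

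In DMSO, 12 plasma cell markers summed to between 8390 and 9440 FPKM in the AMO1 libraries, and to between 94.2 and 148 FPKM in the libraries labelled XG1, where 6 of the 12 averaged under 1 FPKM. Among them, SDC1 (the plasma cell surface proteoglycan CD138) averaged 5070 FPKM in AMO1 and 24.2 in XG1, and IRF4 (a transcription factor on which myeloma cells depend) 77.5 and 0.533. The 11 erythroid markers summed to between 4700 and 5060 FPKM in the XG1 libraries and to between 60.1 and 74.1 in AMO1, where 8 of the 11 averaged under 1 FPKM. The 7 myeloid markers summed to between 127 and 150 FPKM in XG1 and to between 0.716 and 1.51 in AMO1, where all 7 averaged under 1 FPKM. In XG1 the sum was led by ITGAM (71.7) and CD33 (47.2), and 3 of the 7, MPO, CSF1R and CD14, averaged under 1 FPKM. The 6 T and NK cell markers summed to between 40.4 and 58.7 FPKM in XG1, most of it CD7 (45.5), with 5 of the 6 averaging under 1 FPKM, and to between 0.915 and 2.30 in AMO1. The fetal globin gene HBG1 averaged 1450 FPKM in XG1 and 0.941 in AMO1. The name XG1 below stands for the libraries so labelled, and differences between the lines are differences between these libraries. Libraries also differed within groups. Replicate 2 of AMO1 at 1000 nM had a size factor of 0.531 against 0.806 and 0.820 in the other two, and its 35 members summed to 370 FPKM against 588 and 628. Replicate 3 of XG1 at 100 nM had a size factor of 0.8 against 1.04 and 1.05, and its members summed to 528 FPKM against 631 and 665. The Spearman rho over genes between libraries of that group lay between 0.817 and 0.956.

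The results turn mainly on the IkB family genes NFKBIA and NFKBIZ, which differed in response between the lines. They also turn on BIRC3 and LTB, which differed most in level, downward, between the lines in DMSO. The promoters of all of these genes are printed because each holds a match to the kB consensus motif. NF-kB dimers bind this 10-base sequence. Each line gives the 250 bases upstream of a transcription start, 5′ to 3′ on the gene's strand, from RefSeq (build GRCh38.p14), with matches on either strand in capitals. NFKBIZ has a match upstream of each of 2 listed starts.
NFKBIA, chr14:35404750-35404999, minus strand: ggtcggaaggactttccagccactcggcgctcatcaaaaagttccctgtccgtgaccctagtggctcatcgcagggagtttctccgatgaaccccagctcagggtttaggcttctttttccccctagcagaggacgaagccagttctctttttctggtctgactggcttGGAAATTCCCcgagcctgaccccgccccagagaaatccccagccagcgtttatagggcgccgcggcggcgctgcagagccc
NFKBIZ, first listed start, chr3:101849264-101849513, plus strand: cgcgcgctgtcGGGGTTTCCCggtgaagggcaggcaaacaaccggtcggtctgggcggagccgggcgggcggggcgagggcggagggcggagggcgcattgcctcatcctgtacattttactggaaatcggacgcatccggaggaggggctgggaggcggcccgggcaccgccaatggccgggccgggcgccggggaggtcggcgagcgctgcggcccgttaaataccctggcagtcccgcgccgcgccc
NFKBIZ, second listed start, chr3:101827740-101827989, plus strand: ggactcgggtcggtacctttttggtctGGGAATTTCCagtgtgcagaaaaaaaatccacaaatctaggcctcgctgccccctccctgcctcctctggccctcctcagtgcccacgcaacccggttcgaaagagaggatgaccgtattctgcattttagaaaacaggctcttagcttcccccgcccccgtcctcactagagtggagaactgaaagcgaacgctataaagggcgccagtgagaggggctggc
BIRC3, chr11:102317234-102317483, plus strand: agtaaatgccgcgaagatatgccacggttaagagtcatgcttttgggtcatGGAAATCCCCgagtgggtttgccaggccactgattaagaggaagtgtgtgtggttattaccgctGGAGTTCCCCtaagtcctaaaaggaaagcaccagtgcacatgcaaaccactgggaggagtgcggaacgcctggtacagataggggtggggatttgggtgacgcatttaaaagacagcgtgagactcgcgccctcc
LTB, chr6:31582425-31582674, minus strand: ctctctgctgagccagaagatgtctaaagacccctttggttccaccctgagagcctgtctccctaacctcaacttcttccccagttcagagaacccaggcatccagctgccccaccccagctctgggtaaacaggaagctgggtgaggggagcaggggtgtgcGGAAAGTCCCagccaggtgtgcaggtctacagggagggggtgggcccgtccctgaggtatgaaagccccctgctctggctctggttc
The match begins 81 bases upstream of the start in NFKBIA and 87 bases upstream in LTB. In BIRC3 the matches begin 199 and 135 bases upstream. The promoter table holds 53 promoters for 30 of the members. Of these, 18 (34%) hold a match, against 9.96% of all 35116 promoters of the table searched over the same 250 bases on both strands. The members include textbook targets by choice, so the difference between these shares is no result about these data and was not tested. Some listed windows of a gene overlap, as in LTB, and a match that they share counts for each. By gene, 15 of the 30 members have a match in at least 1 promoter. RELB, NFKBIE, IKBKB, CD40 and IER3 are named only. A match describes the letters and is no evidence of binding in these cells.

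In DMSO, the members differed widely between the lines (the plot of DMSO levels shows each library). Of the 31 members tested, 11 were higher in XG1 and 14 were lower on the deposited scale, where 45.0% of all 12792 genes tested were higher and 19.8% lower. With the relative values, 8 were higher and 19 lower, against 32.3% and 33.5% of all genes. The median member differed by a log2 of −0.20 while the median of all genes was 0.42, and by −0.62 against 0.01 on the relative scale. Of the deposited-scale calls, 19 of 25 were kept whichever single library was left out, as were 25 of 27 on the relative scale. The members TRAF1, IKBKG, TNF and PLEK did not pass the filter, which asks for 1 FPKM or more in 3 or more libraries.

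**Figure D1:**
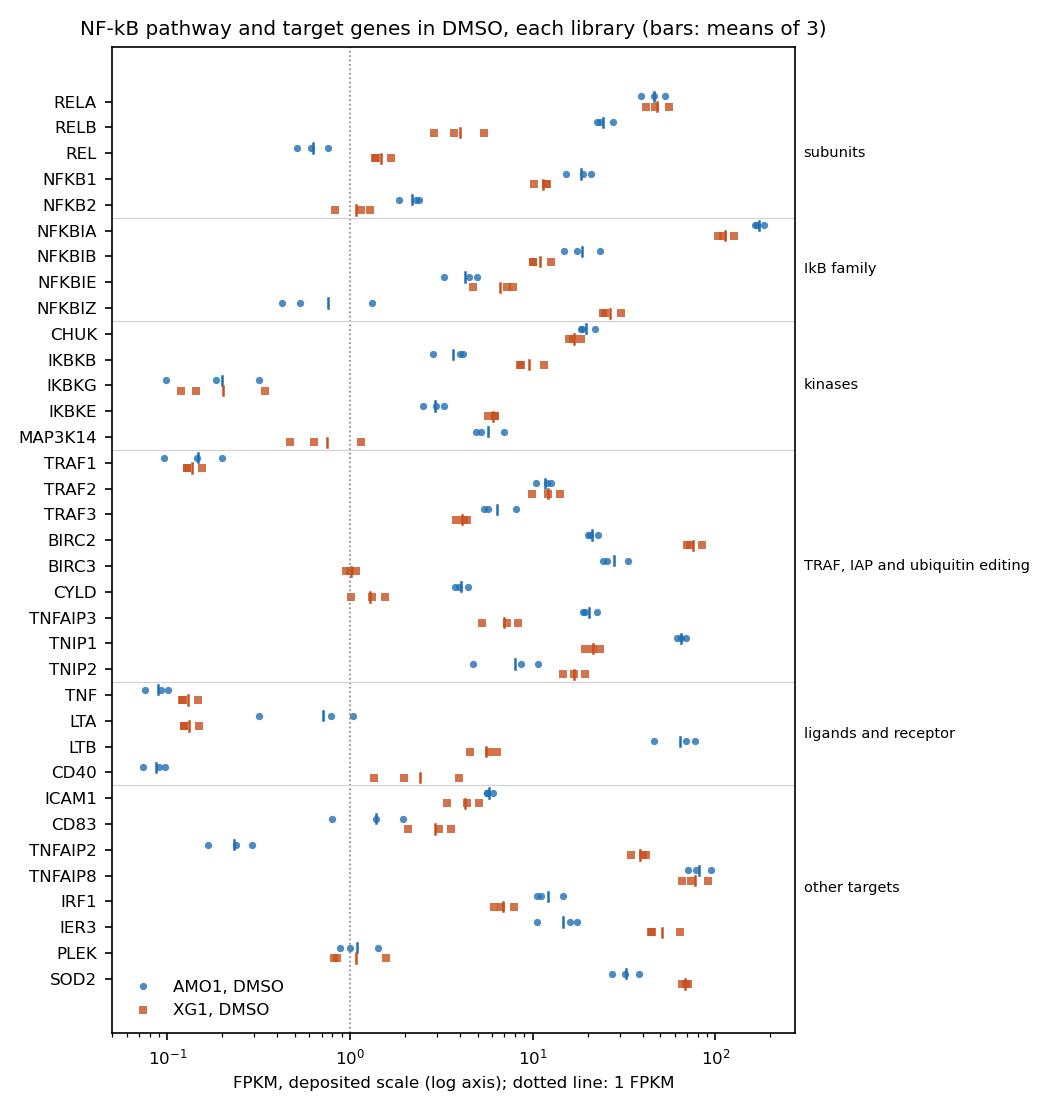
FPKM of the 35 members in the DMSO libraries on a log axis, in rows grouped by role, with circles for AMO1, squares for XG1, each symbol 1 library and short bars the means of 3. BIRC3, LTB and RELB lie far to the left in XG1, and TNFAIP2, NFKBIZ and CD40 far to the right.

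Among the NF-kB subunits, RELB, partner of the processed NFKB2 product in the noncanonical route, measured 22.4, 27.4 and 23.4 FPKM in the AMO1 libraries and 2.90, 5.41 and 3.72 in XG1. Every XG1 library was below every AMO1 library, with a log2 difference of −2.37 ± 0.34 (SE) and an adjusted p of 1.01e-05. NFKB1, which encodes p105 and its product p50, measured 18.9, 20.7 and 15.2 FPKM in AMO1 and 10.2, 12.0 and 11.8 in XG1 (log2 −0.64, adjusted p = 0.00231). NFKB2, which encodes p100 and its product p52, measured 2.31, 1.86 and 2.38 FPKM in AMO1 and 0.823, 1.15 and 1.28 in XG1 (log2 −0.61, adjusted p = 0.0214). The NFKB2 call was lost without any of 3 single libraries, with adjusted p-values of up to 0.0807. RELA, the main activating subunit of the canonical route, measured 46.3, 53.0 and 38.9 FPKM in AMO1 and 55.5, 46.8 and 41.9 in XG1, so the groups overlapped. Its difference was 0.06 on the deposited scale (adjusted p = 0.805) and −0.45 relative to the median gene (adjusted p = 0.00573). REL, the lymphoid subunit, was higher in XG1 (1.48 against 0.628 FPKM, adjusted p = 0.025), a call lost without any of 3 single libraries and with the relative values (0.32, adjusted p = 0.154).

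The IkB family differed member by member. NFKBIA, the IkB alpha gene, measured 164, 185 and 170 FPKM in AMO1 and 111, 103 and 126 in XG1 (log2 −0.61, adjusted p = 0.0039). NFKBIZ, which encodes the nuclear IkB zeta that works as a coactivator for some inflammatory genes, measured 0.423, 1.32 and 0.530 FPKM in AMO1 and 24.2, 24.9 and 30.3 in XG1. Its XG1 libraries all lay far above the AMO1 libraries, by a log2 of 3.99 ± 0.23 (SE) with an adjusted p of 8.87e-11. NFKBIZ overlaps NXPE3 in the annotation, and no source used here gives the strand setting of the counting. NFKBIB, the IkB beta gene, averaged 18.6 FPKM in AMO1 and 10.9 in XG1 (adjusted p = 0.02), a call lost in 3 of the 6 refits that each leave out 1 library. NFKBIE, the IkB epsilon gene, averaged 4.23 and 6.58 FPKM, and its difference did not pass the test.

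The genes of the noncanonical brake and of ubiquitin editing split. BIRC3, the cIAP2 ubiquitin ligase gene and a classical NF-kB target, measured 25.5, 33.4 and 24.2 FPKM in AMO1 and 1.00, 1.08 and 0.951 in XG1. The groups lay far apart, with a log2 difference of −3.82 ± 0.22 (SE) and an adjusted p of 1.13e-10. BIRC2, the cIAP1 gene beside it on the chromosome, went the other way: it measured 20.0, 22.9 and 20.7 FPKM in AMO1 and 72.8, 70.1 and 84.2 in XG1 (log2 1.79 ± 0.19, adjusted p = 3.35e-07). MAP3K14, the NIK kinase gene, measured 4.87, 6.93 and 5.19 FPKM in AMO1 and 0.633, 0.469 and 1.15 in XG1 (log2 −1.94, adjusted p = 1.2e-06). MAP3K14 overlaps the antisense gene MAP3K14-AS1, and reads of the pair could not be told apart if counting ignored strand. TNFAIP3, the A20 gene whose product edits ubiquitin chains and dampens signalling, measured 19.4, 22.6 and 18.9 FPKM in AMO1 and 7.26, 5.29 and 8.29 in XG1 (log2 −1.44, adjusted p = 0.000167). TNIP1, which encodes an A20 partner, measured 64.4, 69.1 and 61.3 FPKM in AMO1 and 19.3, 21.5 and 23.4 in XG1 (log2 −1.56, adjusted p = 1.24e-06). In each of these inhibitors the groups did not overlap. CYLD, the deubiquitinase gene, was also lower in XG1 (1.29 against 4.04 FPKM, adjusted p = 4.48e-05), as was TRAF3 (4.11 against 6.40 FPKM, adjusted p = 0.0258). The TRAF3 call was kept in 3 of the 6 refits that each leave out 1 library, with adjusted p-values of up to 0.136. TNIP2, another A20 partner gene, was higher in XG1 (16.9 against 8.01 FPKM, adjusted p = 0.00276). Its relative difference was 0.55 (adjusted p = 0.0339), a call lost in 4 of the 6 refits that each leave out 1 library. TRAF2, the adaptor of the brake, averaged 11.6 FPKM in AMO1 and 12.1 in XG1, with no call on the deposited scale. Its relative difference was −0.44 (adjusted p = 0.028), lost in 2 of the 6 refits with adjusted p-values of up to 0.116. Among the kinases, IKBKB was higher in XG1 by a log2 of 1.17, and by 0.70 on the relative scale (adjusted p = 0.00325). IKBKE was higher by 0.86 on the deposited scale, a call lost on the relative scale (0.42, adjusted p = 0.171). CHUK had no call on the deposited scale (−0.20) and was lower on the relative scale (−0.69, adjusted p = 0.00669), in every refit that left out 1 library.

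The ligands and the receptor showed wide gaps. LTB, which encodes lymphotoxin beta, a noncanonical ligand, measured 69.4, 77.3 and 46.2 FPKM in AMO1 and 4.54, 6.35 and 5.80 in XG1. Its log2 difference was −3.29 ± 0.36 (SE) with an adjusted p of 5.03e-07, and no libraries of the lines overlapped. LTA, the lymphotoxin alpha gene, measured 1.04, 0.788 and 0.317 FPKM in AMO1 and 0.123, 0.123 and 0.148 in XG1 (adjusted p = 0.0126; 0.0758 without AMO1 DMSO replicate 1). CD40, a receptor that feeds both routes in B cells, measured 0.0732, 0.0975 and 0.0898 FPKM in AMO1 and 1.97, 1.36 and 3.95 in XG1 (adjusted p = 1.65e-05). The lowest values of the table lie near 0.1 FPKM and stand for genes with no measured signal, so CD40 in AMO1 and LTA in XG1 were at that floor and no fold is given. Of the remaining targets, TNFAIP2, a TNF-induced gene, measured 0.167, 0.293 and 0.237 FPKM in AMO1 and 40.1, 34.6 and 41.8 in XG1 (log2 5.01 ± 0.18, adjusted p = 1.45e-13). IER3, an immediate early gene, measured 17.4, 16.0 and 10.5 FPKM in AMO1 and 44.9, 44.5 and 64.0 in XG1 (log2 1.75, adjusted p = 9.65e-07). IRF1, an interferon regulatory factor and NF-kB target, measured 11.2, 14.6 and 10.5 FPKM in AMO1 and 6.69, 6.12 and 7.87 in XG1 (log2 −0.72, adjusted p = 0.00432). TNFAIP2 and IER3 were thus higher and IRF1 lower in every XG1 library. SOD2, the mitochondrial superoxide dismutase gene, was higher in XG1 (68.3 against 32.4 FPKM, adjusted p = 0.0004), and it overlaps WTAP and ACAT2 in the annotation. CD83, an activation marker, was higher (2.91 against 1.38 FPKM, adjusted p = 0.00751; 0.0536 without AMO1 DMSO replicate 1), a call lost on the relative scale (0.36, adjusted p = 0.145). ICAM1, the adhesion molecule gene, measured 5.59, 6.10 and 5.65 FPKM in AMO1 and 4.34, 3.39 and 5.07 in XG1, with no call on the deposited scale and a log2 of −0.78 on the relative scale (adjusted p = 0.0028). TNFAIP8 averaged 81.2 FPKM in AMO1 and 76.8 in XG1, with no call on the deposited scale and a relative difference of −0.60 (adjusted p = 0.00277) that was kept in every refit. By promoter, 12 of the 15 tested members with a kB match were lower in XG1 on the deposited scale and 3 were higher, and of the 11 without one 1 was lower and 5 higher, where 19.8% of all genes were lower and 45.0% higher. With the relative values, 12 of the 15 were lower and 1 higher, and of the 11 without a match 6 were lower and 4 higher, against 33.5% and 32.3% of all genes. These counts are a description, and the sets were not tested against each other.

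In AMO1 treated with 1000 nM, 17 of 27 tested members were lower on the deposited scale and 0 were higher (limma; 1 at an unadjusted p below 0.05). Across all 10503 genes tested, 65.7% were lower and 2.51% higher, so the members' 63% is near the background. The median member changed by −0.65 and the median gene by −0.77. Relative to the median gene, 9 of the 27 were higher and 2 lower, where 23.5% of all genes were higher and 24.5% lower. Of the calls, 12 of 17 on the deposited scale and 7 of 11 on the relative scale were kept whichever library was left out. REL, TNFAIP2, TRAF1, IKBKG, CD40, CD83, TNF and PLEK were under the filter in AMO1.

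**Figure D2:**
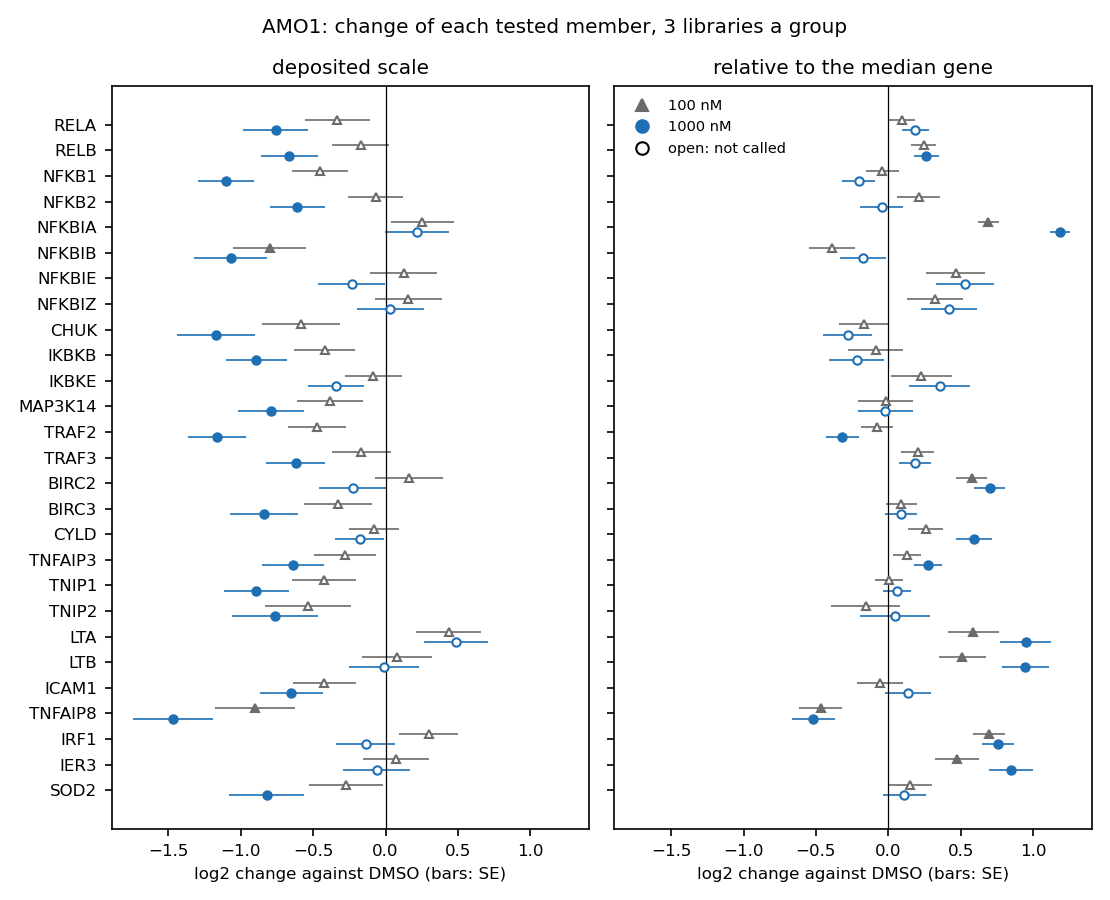
Log2 change of each of the 27 tested members in AMO1 against DMSO, with 100 nM as triangles, 1000 nM as circles and bars for the SE. On the deposited scale (left) 17 members are filled at 1000 nM, all left of 0. On the relative scale (right) NFKBIA stands farthest to the right at 1000 nM, and IRF1 and NFKBIA lie close together at 100 nM.

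NFKBIA was not called lower on the deposited scale, where most genes were. It measured 164, 185 and 170 FPKM in DMSO, 212, 200 and 206 at 100 nM, and 237, 143 and 238 at 1000 nM. All 3 libraries at 100 nM were above all 3 in DMSO, and at 1000 nM only replicate 2 lay below them. On the deposited scale the change was 0.22 ± 0.22 (SE) at 1000 nM with an adjusted p of 0.386. Without AMO1 1000 nM replicate 2 it was 0.46 with an adjusted p of 0.00105. Divided by the size factors, the libraries read 126, 121 and 128 in DMSO, 217, 195 and 194 at 100 nM, and 294, 269 and 290 at 1000 nM, and no group overlapped another. That is a rise of 0.69 ± 0.07 at 100 nM (adjusted p = 0.000116), of 1.19 ± 0.07 at 1000 nM (adjusted p = 1.76e-06), and of 0.50 between the doses (adjusted p = 0.00537), each kept in every refit that left out 1 library.

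The subunits of AMO1 were lower on the deposited scale, though only NFKB1 stayed below 0 relative to the median gene by more than 0.1. NFKB1 measured 18.9, 20.7 and 15.2 FPKM in DMSO, 12.4, 13.8 and 12.8 at 100 nM, and 8.82, 6.66 and 8.45 at 1000 nM, where it fell by 1.10 ± 0.19 (adjusted p = 0.000214). The 3 groups did not overlap, and on the relative scale the change was −0.21 (adjusted p = 0.156). RELA measured 46.3, 53.0 and 38.9 FPKM in DMSO, 36.8, 34.7 and 36.9 at 100 nM, and 31.4, 18.9 and 31.7 at 1000 nM (log2 −0.76, adjusted p = 0.00838). RELB measured 22.4, 27.4 and 23.4 FPKM in DMSO, 19.6, 21.4 and 23.6 at 100 nM, and 16.8, 12.2 and 16.3 at 1000 nM (log2 −0.66, adjusted p = 0.00811). For both genes every library at 1000 nM was below every DMSO library, and the direction turned on the relative scale, to 0.19 for RELA (adjusted p = 0.122) and 0.26 for RELB (adjusted p = 0.0309). The relative rise of RELB was lost in 5 of the 6 refits that each leave out 1 library, with adjusted p-values of up to 0.104. NFKB2 measured 2.31, 1.86 and 2.38 FPKM in DMSO and 1.22, 0.678 and 1.42 at 1000 nM (log2 −0.61, adjusted p = 0.0113), and −0.05 on the relative scale.

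Inhibitors and brake genes of AMO1 included members called above the median gene, TRAF2 called below it, and others with no call on the relative scale. NFKBIB measured 17.4, 23.5 and 14.9 FPKM in DMSO, 8.78, 12.8 and 9.06 at 100 nM, and 9.41, 5.45 and 10.6 at 1000 nM. It fell by 1.07 at 1000 nM (adjusted p = 0.00201) and by 0.80 at 100 nM (adjusted p = 0.0274), and both treated groups lay below the DMSO group. The call at 100 nM was lost in 4 of 6 refits that each leave out 1 library, with adjusted p-values of up to 0.126. TNFAIP3 measured 19.4, 22.6 and 18.9 FPKM in DMSO, 14.4, 16.2 and 19.1 at 100 nM, and 15.6, 9.30 and 13.8 at 1000 nM (log2 −0.64, adjusted p = 0.0172; 0.0691 without AMO1 DMSO replicate 2). On the relative scale TNFAIP3 turned to 0.28 (adjusted p = 0.0399), a call kept in 1 of the 6 refits that each leave out 1 library (adjusted p up to 0.115). BIRC3 measured 25.5, 33.4 and 24.2 FPKM in DMSO, 18.4, 22.3 and 24.6 at 100 nM, and 18.5, 10.4 and 17.1 at 1000 nM, with a log2 change of −0.84 (adjusted p = 0.00607) that turned to 0.09 on the relative scale. BIRC2 was above the median gene: its levels of 20.0, 22.9 and 20.7 FPKM in DMSO, 20.4, 27.1 and 24.4 at 100 nM, and 22.4, 12.1 and 21.4 at 1000 nM gave −0.22 on the deposited scale (adjusted p = 0.404) and 0.70 on the relative scale (adjusted p = 0.000559). TRAF2 measured 12.6, 11.9 and 10.5 FPKM in DMSO, 8.06, 8.60 and 7.61 at 100 nM, and 5.63, 3.35 and 5.19 at 1000 nM. Its 3 groups did not overlap, and it fell by 1.16 ± 0.20 at 1000 nM (adjusted p = 0.000181). TRAF2 was also lower on the relative scale (−0.32, adjusted p = 0.0398), a call lost in 4 of the 6 refits that each leave out 1 library. TNIP1 measured 64.4, 69.1 and 61.3 FPKM in DMSO and 35.7, 24.8 and 46.5 at 1000 nM (log2 −0.89, adjusted p = 0.00288), with 0.06 on the relative scale. CYLD was not called on the deposited scale (−0.18) and rose relative to the median gene by 0.59 (adjusted p = 0.00327). MAP3K14 measured 4.87, 6.93 and 5.19 FPKM in DMSO and 2.31, 2.36 and 3.96 at 1000 nM (log2 −0.79, adjusted p = 0.00699), with −0.02 on the relative scale. CHUK, the IKK alpha gene, measured 18.4, 21.9 and 18.6 FPKM in DMSO, 13.5, 13.2 and 11.5 at 100 nM, and 11.6, 4.41 and 10.2 at 1000 nM (log2 −1.17, adjusted p = 0.00168). Its libraries at 1000 nM were all below DMSO, and the change was −0.28 relative to the median gene with no call. IKBKB, TRAF3 and TNIP2 were lower on the deposited scale by 0.89, 0.62 and 0.77 and were not called on the relative scale. TRAF3 and TNIP2 lost their deposited-scale calls without AMO1 DMSO replicate 2 (adjusted p = 0.0811 and 0.147), and TNIP2 without AMO1 DMSO replicate 1 and AMO1 1000 nM replicate 2 as well (0.0779 and 0.188).

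The lymphotoxin genes of AMO1 were also higher relative to the median gene. LTB measured 69.4, 77.3 and 46.2 FPKM in DMSO, 64.8, 59.0 and 77.2 at 100 nM, and 62.2, 49.4 and 78.5 at 1000 nM. The groups overlapped on the deposited scale, with a change of −0.01 (adjusted p = 0.962) at 1000 nM. Divided by the size factors, LTB read 53.1, 50.4 and 34.8 in DMSO and 77.2, 92.9 and 95.7 at 1000 nM, with no overlap and a rise of 0.94 ± 0.16 (adjusted p = 0.0011). LTA measured 1.04, 0.788 and 0.317 FPKM in DMSO, 1.02, 1.24 and 1.62 at 100 nM, and 1.74, 0.803 and 1.69 at 1000 nM. Its change at 1000 nM was 0.49 on the deposited scale (adjusted p = 0.0645) and 0.95 on the relative scale (adjusted p = 0.00172). Without AMO1 1000 nM replicate 2 or without AMO1 DMSO replicate 1, LTA was called on the deposited scale too (adjusted p = 0.0205 and 0.0343).

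Among further targets, IRF1 measured 11.2, 14.6 and 10.5 FPKM in DMSO, 16.1, 15.1 and 13.8 at 100 nM, and 12.3, 8.64 and 11.8 at 1000 nM. The deposited-scale groups overlapped, and relative to the median gene IRF1 rose by 0.70 at 100 nM (adjusted p = 0.00131) and by 0.76 at 1000 nM (adjusted p = 0.000408). IER3 measured 17.4, 16.0 and 10.5 FPKM in DMSO, 14.2, 16.3 and 14.9 at 100 nM, and 15.4, 10.3 and 16.1 at 1000 nM, which gave −0.06 on the deposited scale and 0.84 on the relative scale (adjusted p = 0.00146). TNFAIP8, a TNF-induced regulator of cell death, moved the other way. It measured 78.6, 94.6 and 70.5 FPKM in DMSO, 44.6, 40.0 and 43.9 at 100 nM, and 35.9, 16.5 and 38.9 at 1000 nM. Its 3 groups did not overlap, and it fell by 1.47 ± 0.28 at 1000 nM (adjusted p = 0.000366) and by 0.90 at 100 nM (adjusted p = 0.0235). Relative to the median gene it fell by 0.52 at 1000 nM (adjusted p = 0.0162; 0.0507 without AMO1 DMSO replicate 2). ICAM1 measured 5.59, 6.10 and 5.65 FPKM in DMSO, 2.92, 4.99 and 4.52 at 100 nM, and 3.26, 2.45 and 4.46 at 1000 nM (log2 −0.65, adjusted p = 0.0161; 0.0606 without AMO1 1000 nM replicate 2), with 0.13 on the relative scale. SOD2 was lower by 0.82 (adjusted p = 0.0114; 0.0541 without AMO1 DMSO replicate 2), with 0.11 on the relative scale. Among the 23 tested AMO1 members with a promoter in the table, 6 of 13 with a kB match and 1 of 10 without one were higher on the relative scale at 1000 nM, where 23.5% of all genes were. On that scale 0 of the 13 and 2 of the 10 were lower. On the deposited scale 7 of the 13 and 8 of the 10 were lower and 0 in either set higher, against 65.7% and 2.51% of all genes. The sets were not tested against each other.

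At 100 nM, AMO1 had 2 of 27 members lower on the deposited scale, NFKBIB and TNFAIP8, and 0 higher (limma; 0 at an unadjusted p below 0.05), against 29.5% and 2.73% of all genes. Neither call was kept in every refit that left out 1 library. The TNFAIP8 call was lost in 3 of these 6 refits, with adjusted p-values of up to 0.0985. Relative to the median gene, NFKBIA, BIRC2, LTA, LTB, IRF1 and IER3 were higher, 6 of 27 against 14.0% of all genes, and TNFAIP8 lower, 1 of 27 against 17.0%. That TNFAIP8 call was lost in 4 of the 6 refits, with adjusted p-values of up to 0.105. The calls of NFKBIA, BIRC2 (0.58, adjusted p = 0.00314) and IRF1 were kept in every refit. Those of LTA (0.59, adjusted p = 0.0306), LTB (0.51, adjusted p = 0.0379) and IER3 (0.47, adjusted p = 0.0396) were each lost without AMO1 DMSO replicate 3, with adjusted p-values of 0.114, 0.11 and 0.116, and without others. From 100 nM to 1000 nM, 26 of the 27 members had a negative change on the deposited scale. Only NFKB1 (−0.65, adjusted p = 0.0317) and TRAF2 (−0.69, adjusted p = 0.0291) were called lower, 2 of 27 against 23.4% of all genes, and 0 were higher against 0.209% (limma; 0 at an unadjusted p below 0.05). Both calls were lost without any 1 of the 100 nM libraries. On the relative scale NFKBIA alone was higher, against 1.67% of all genes, and 0 were lower against 4.18% (limma; 0 at an unadjusted p below 0.05).

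The members under the filter in AMO1 also held values. TRAF1, an NF-kB-induced adaptor, measured 0.198, 0.145 and 0.0961 FPKM in DMSO, 0.375, 0.631 and 0.554 at 100 nM, and 0.348, 0.582 and 0.590 at 1000 nM, so every treated library was above every DMSO library. CD83 measured 0.797, 1.39 and 1.95 FPKM in DMSO, 0.269, 0.0781 and 0.397 at 100 nM, and 0.173, 0.0603 and 0.131 at 1000 nM, all treated libraries below DMSO. PLEK, the pleckstrin gene, averaged 1.10, 0.718 and 0.429 FPKM. With no filter on low values TRAF1 was called higher at 1000 nM (0.39, adjusted p = 0.0161), and CD83 (−1.06, adjusted p = 0.00273) and PLEK (−0.55, adjusted p = 0.0371) lower. TRAF1 overlaps PHF19 in the annotation. The highest AMO1 library of REL read 0.779 FPKM, of TNFAIP2 0.576, of IKBKG 0.317 and of CD40 0.0975, and TNF lay near the floor in every library. IKBKG, the NEMO gene, has a near-identical pseudogene copy, so its value is uncertain.

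In the libraries labelled XG1, fewer members passed the test. At 1000 nM, NFKBIZ and NFKBIA were lower, 2 of 29 against 13.2% of all 11810 genes tested, and 0 were higher against 3.69% (limma; 0 at an unadjusted p below 0.05). The relative scale gave 3 higher, RELA, TNFAIP2 and BIRC2, against 9.41% of all genes, and 1 lower, NFKBIZ, against 10.2%. On the deposited scale the median member changed by −0.28 and the median gene by −0.15, and on the relative scale by −0.117 and 0.004. Members under the filter were TRAF1, MAP3K14, IKBKG, TNF, LTA and PLEK.

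**Figure D3:**
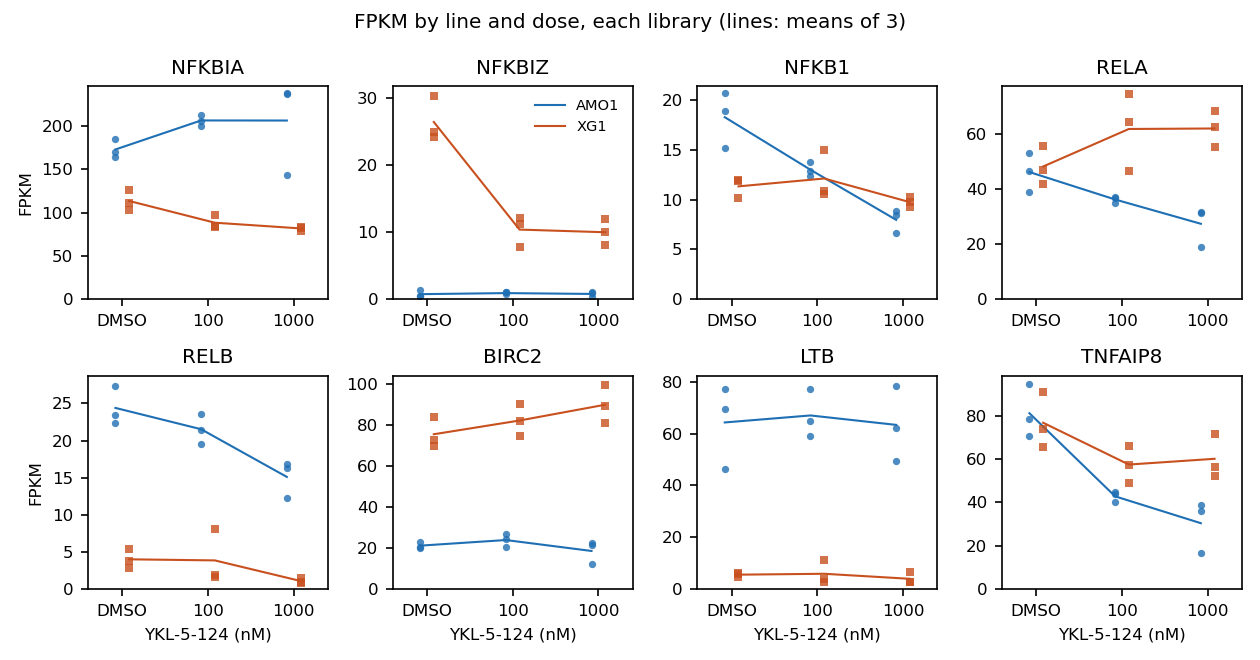
FPKM of 8 members by line and dose, on linear axes from 0, with 1 symbol per library and lines through the means of 3. NFKBIZ drops in XG1 at both doses, and NFKB1 and TNFAIP8 step down in AMO1, while NFKBIA lies above DMSO in all AMO1 libraries but replicate 2 at 1000 nM and below it in XG1.

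NFKBIZ measured 24.2, 24.9 and 30.3 FPKM in XG1 DMSO, 11.3, 12.1 and 7.81 at 100 nM, and 8.07, 12.0 and 9.98 at 1000 nM. Every treated library lay below every DMSO library, and the doses overlapped each other. It fell by 1.28 ± 0.21 (SE) at 100 nM (adjusted p = 0.00387) and by 1.33 ± 0.21 at 1000 nM (adjusted p = 0.0018). The falls were 1.11 and 1.15 relative to the median gene, and all 4 calls were kept in every refit that left out 1 library. NFKBIA measured 111, 103 and 126 FPKM in DMSO, 84.6, 96.7 and 83.6 at 100 nM, and 83.9, 82.0 and 79.3 at 1000 nM, with both treated groups below the DMSO group. Its fall of 0.46 at 1000 nM (adjusted p = 0.0263) was lost in 5 of 6 refits that each leave out 1 library, with adjusted p-values of up to 0.111, and was −0.28 on the relative scale (adjusted p = 0.0912). NFKBIE measured 7.22, 4.69 and 7.85 FPKM in DMSO, 2.67, 3.63 and 3.51 at 100 nM, and 4.13, 4.54 and 6.14 at 1000 nM. The groups did not overlap at 100 nM, where it fell by 0.81 (adjusted p = 0.0475). This call was kept in 1 of the 6 refits that each leave out 1 library, with adjusted p-values of up to 0.175. NFKBIB averaged 10.9, 11.1 and 12.1 FPKM and was not called.

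The subunits in XG1 had no call on the deposited scale at either dose. RELA measured 55.5, 46.8 and 41.9 FPKM in DMSO, 64.1, 74.5 and 46.5 at 100 nM, and 68.3, 62.3 and 55.0 at 1000 nM. Its groups overlapped slightly, with 0.36 on the deposited scale at 1000 nM (adjusted p = 0.211) and a rise of 0.54 on the relative scale (adjusted p = 0.0312). The relative call of RELA was kept in 1 of the 6 refits that each leave out 1 library, with adjusted p-values of up to 0.0945. RELB measured 2.90, 5.41 and 3.72 FPKM in DMSO, 1.87, 8.10 and 1.62 at 100 nM, and 0.794, 1.01 and 1.46 at 1000 nM. All 1000 nM libraries were below DMSO, and replicate 2 at 100 nM was the highest of the 9. The change of RELB at 1000 nM was −1.24 ± 0.42 (SE) with an adjusted p of 0.0669. NFKB1 measured 10.2, 12.0 and 11.8 FPKM in DMSO, 10.6, 15.0 and 10.9 at 100 nM, and 10.3, 9.76 and 9.22 at 1000 nM, with overlapping groups and no call. NFKB2 averaged 1.08, 0.746 and 0.545 FPKM with no call, and REL averaged 1.48, 1.72 and 1.55.

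Of the brake and ubiquitin genes in XG1, BIRC2 measured 72.8, 70.1 and 84.2 FPKM in DMSO, 90.6, 81.9 and 74.6 at 100 nM, and 99.8, 81.0 and 89.5 at 1000 nM. It overlapped between groups and gave 0.25 on the deposited scale (adjusted p = 0.247) and 0.43 relative to the median gene (adjusted p = 0.0157; up to 0.0604 without 1 library). TNFAIP3 measured 7.26, 5.29 and 8.29 FPKM in DMSO, 4.33, 4.95 and 1.49 at 100 nM, and 3.55, 3.06 and 3.70 at 1000 nM. All treated libraries of TNFAIP3 were below DMSO, yet the changes of −0.87 and −0.83 did not pass the test (adjusted p = 0.0923 and 0.0984). BIRC3 averaged 1.01, 1.31 and 0.773 FPKM, TRAF2 12.1, 11.5 and 7.93, and CHUK 16.9, 10.3 and 12.6, none of them called. Among targets, TNFAIP2 measured 40.1, 34.6 and 41.8 FPKM in DMSO, 43.3, 36.6 and 27.3 at 100 nM, and 50.6, 45.0 and 39.1 at 1000 nM. Only the relative scale called it higher at 1000 nM (0.38, adjusted p = 0.0448). That call was kept in 0 of the 6 refits that each leave out 1 library, with adjusted p-values of up to 0.136. IER3 measured 44.9, 44.5 and 64.0 FPKM in DMSO, 79.6, 59.3 and 73.8 at 100 nM, and 66.3, 62.9 and 66.5 at 1000 nM. It rose relative to the median gene at 100 nM by 0.66 (adjusted p = 0.0329). This call was kept in 2 of the 6 refits that each leave out 1 library, with adjusted p-values of up to 0.104. CD40 measured 1.97, 1.36 and 3.95 FPKM in DMSO, 0.890, 1.41 and 0.421 at 100 nM, and 1.05, 0.410 and 0.617 at 1000 nM, all 1000 nM libraries below DMSO, with no call in the test within XG1. LTB averaged 5.56, 5.91 and 3.96 FPKM, ICAM1 4.27, 3.35 and 3.11, SOD2 68.3, 55.2 and 55.8, and TNFAIP8 76.8, 57.5 and 60.2, with no call. Of the genes under the filter, TNF measured 0.121, 0.121 and 0.146 FPKM in DMSO and 1.19, 0.111 and 0.427 at 1000 nM, so 1 library carried most of its signal. The highest XG1 library of MAP3K14 read 1.15 FPKM, of PLEK 1.57, of IKBKG 0.342, of TRAF1 0.277 and of LTA 0.164.

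At 100 nM in XG1, NFKBIZ and NFKBIE were lower, 2 of 29 against 10.0% of all genes, and 0 were higher against 2.48% (limma; 1 at an unadjusted p below 0.05). The relative scale gave RELA (0.52, adjusted p = 0.0452) and IER3 as higher, 2 of 29 against 7.10% of all genes, and NFKBIZ as lower, 1 of 29 against 7.31%. That RELA call was kept in 1 of the 6 refits that each leave out 1 library, with adjusted p-values of up to 0.131. Between the doses, limma called 0 of 29 members in either direction on both scales. All genes gave 0.0677% higher and 0.322% lower on the deposited scale and 0.161% and 0.754% on the relative scale. At an unadjusted p below 0.05 there were 0 higher and 1 lower on the deposited scale, and 1 higher and 2 lower on the relative scale.

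The response to 1000 nM differed between the lines for 10 of 31 members on the deposited scale. The test was of the XG1 change minus the AMO1 change. For NFKB1 (0.91, adjusted p = 0.00661), RELA (1.12, adjusted p = 0.00763), NFKBIB (1.19, adjusted p = 0.016), TNFAIP8 (1.12, adjusted p = 0.0208), TNIP1 (0.79), TNIP2 (1.04) and IKBKB (0.86) it was positive, 7 of 31 against 32.8% of all genes. It was negative for NFKBIA, NFKBIZ and CD40, 3 of 31 against 1.50% of all genes. The calls of NFKB1, RELA and NFKBIZ were kept in every refit that left out 1 library, and the positive count was 2 without AMO1 DMSO replicate 2. Relative to the median gene, 0 were positive against 10.1% of all genes (limma; 1 at an unadjusted p below 0.05) and 6 were negative against 6.80%.

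**Figure D4:**
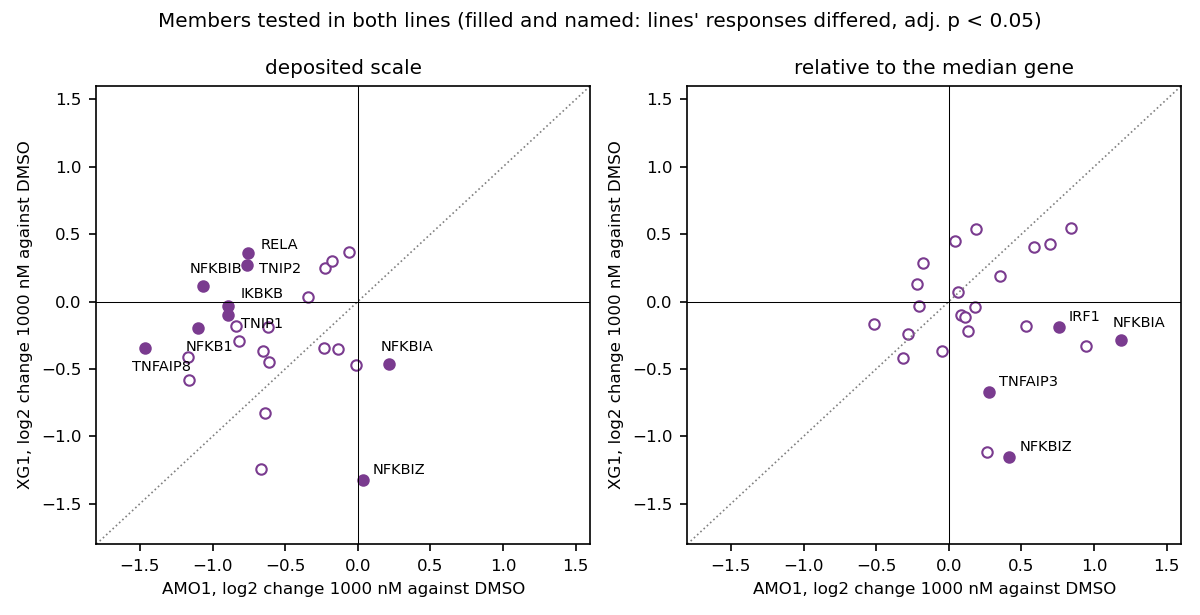
Log2 change at 1000 nM against DMSO in AMO1 (horizontal) and XG1 (vertical) for the members tested in both lines, on the deposited (left) and relative (right) scale, with the dotted line marking equal change. Filled points are members whose response differed between the lines, and NFKBIA and NFKBIZ lie below the line on both sides.

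NFKBIA differed between the lines in direction on the relative scale, with 1.19 in AMO1 and −0.28 in XG1 at 1000 nM. The difference of the responses was −1.43 ± 0.13 (SE) on that scale (adjusted p = 2.33e-06) and −0.68 ± 0.23 on the deposited scale (adjusted p = 0.0326). Of the 12 refits that each leave out 1 library, all 12 kept the relative call and 3 kept the deposited-scale call, with adjusted p-values of up to 0.0742 for the latter. NFKBIZ had 0.03 in AMO1, where it lay near 1 FPKM, and −1.33 in XG1, a difference of −1.36 on the deposited scale (adjusted p = 0.00468) against −1.60 with the relative values (adjusted p = 0.000934). The relative scale also gave lower responses in XG1 for LTA (−1.07, adjusted p = 0.00381), IRF1 (−0.92, adjusted p = 0.00758), TNFAIP3 (−0.88, adjusted p = 0.0276) and CD40 (−0.81, adjusted p = 0.0399). The TNFAIP3 call was kept in 4 of 12 refits without 1 library (adjusted p up to 0.0635), and the CD40 call in 2 of 12 (up to 0.0932). LTA and CD40 were each at the floor in 1 of the lines, so their difference carries the response of the other line. At 100 nM the responses differed for NFKBIZ on the deposited scale (−1.44, adjusted p = 0.013), 1 of 31 negative against 0.860% of all genes. On that scale 0 were positive against 5.37% (limma; 6 at an unadjusted p below 0.05). With 0.1 instead of 1 added to FPKM before the log2, NFKBIZ was not called at 100 nM. Its difference at 1000 nM was then −1.47 (limma, adjusted p = 0.0487). On the relative scale NFKBIA (−0.85, adjusted p = 0.000485), NFKBIZ (−1.46, adjusted p = 0.00313), NFKBIE (−1.10, adjusted p = 0.035) and IRF1 (−0.70, adjusted p = 0.0496) were negative, 4 of 31 against 3.21% of all genes. There, 0 were positive against 6.28% (limma; 2 at an unadjusted p below 0.05), and the NFKBIE and IRF1 calls were lost in most refits without 1 library, with adjusted p-values of up to 0.0868 and 0.111. The direction of NFKBIA and NFKBIZ in this comparison was the same on both scales at both doses. The line difference in erythroid, plasma cell, myeloid, and T and NK cell markers moves with all of these comparisons, and its part in them was not tested.

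Genes around the pathway were read from 4 further lists. In AMO1 at 1000 nM their counts stand beside 65.7% of all genes lower and 2.51% higher on the deposited scale, and 24.5% lower and 23.5% higher on the relative scale. Of 18 receptors and ligands, 5 were tested in AMO1, and 4 were lower at 1000 nM on both scales with 0 higher (limma; 0 at an unadjusted p below 0.05). They were TNFRSF17 (BCMA, a plasma cell survival receptor; 443 to 155 FPKM, log2 −1.54), TNFRSF13B (TACI; 10.8 to 2.34, log2 −1.82), TNFRSF8 (CD30; 6.02 to 0.396, log2 −2.33) and TNFRSF1B (TNF receptor 2; 41.6 to 15.9, log2 −1.33). Of 29 adaptors, kinases and ubiquitin enzymes, 27 were tested, and 15 were lower on the deposited scale with 0 higher (limma; 0 at an unadjusted p below 0.05), against 8 higher and 2 lower on the relative scale. Among these, IRAK1, a kinase of the interleukin 1 receptor pathway, fell on both scales (−1.45 and −0.49), and RIPK1, the TNF receptor scaffold kinase, rose relative to the median gene by 1.05 (adjusted p = 3.52e-05). Of 9 further inhibitors and cofactors tested, 3 were lower and 0 higher on the deposited scale (limma; 0 at an unadjusted p below 0.05), and 6 were higher and 0 lower on the relative scale (0 lower at an unadjusted p below 0.05), among them BCL3 (1.07), an atypical IkB protein, and the autophagy receptors SQSTM1 (1.14) and OPTN (1.10). Of 16 further targets, 9 were lower and 1 higher on the deposited scale, and 4 lower and 7 higher relative to the median gene. The chemokine gene CCL3 fell from 850 to 191 FPKM (log2 −2.19, adjusted p = 3.21e-06), and the stress gene GADD45B rose from 67.9 to 135 FPKM (log2 0.95, adjusted p = 0.00209).

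In XG1 the same lists were read against 13.2% of all genes lower and 3.69% higher at 1000 nM on the deposited scale, and 10.2% and 9.41% on the relative scale. Of 11 receptors and ligands tested, TNFSF13B (BAFF) was lower, from 64.9 to 36.2 FPKM (adjusted p = 0.00933), and 0 were higher on the deposited scale (limma; 0 at an unadjusted p below 0.05). Of 28 adaptors and enzymes, RIPK1 (0.97) and the ubiquitin ligase subunit RBCK1 (0.99) were higher and the kinase MAP3K8 lower (−1.09). Of 8 further inhibitors, SQSTM1 (0.42) and OPTN (0.50) were higher and 0 were lower (limma; 0 at an unadjusted p below 0.05). Among 20 further targets, 3 were higher, JUNB (1.23), GADD45B (1.30) and BCL2L1 (0.87), and 5 were lower. CXCL8, the interleukin 8 gene, averaged 68.3 FPKM in DMSO, 8.77 at 100 nM and 11.4 at 1000 nM, with log2 changes of −2.95 and −2.55 (adjusted p = 0.00119 and 0.00121). CXCL1 (−1.06), IL32 (−1.07), CD48 (−0.88) and PSMB9 (−0.63) were the others. Relative values at 1000 nM for the receptors and ligands gave 1 higher and 1 lower, the adaptors and enzymes 4 and 1, the inhibitors 3 and 0 (limma; 0 lower at an unadjusted p below 0.05), and the further targets 5 and 3. At 100 nM, where 2.48% of all genes were higher and 10.0% lower on the deposited scale, these lists gave 2 higher and 4 lower among the 20 further targets, 1 lower receptor or ligand (TNFSF13B), 1 lower adaptor (TAB2) and no call among the 8 inhibitors (limma; 1 higher and 0 lower at an unadjusted p below 0.05). With the relative values at 100 nM, where 7.10% of all genes were higher and 7.31% lower, the receptors and ligands gave 1 higher and 1 lower, the adaptors and enzymes 1 and 1, the inhibitors 1 and 0 (limma; 0 lower at an unadjusted p below 0.05), and the further targets 3 and 4.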

How the data were processed

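RNA from 18 libraries (2 lines, 3 doses, 3 replicates each) was sequenced with a 3' end method. Per the submitters' processing notes, reads were processed with HISAT2 and Cuffnorm on hg19, and the authors deposited 1 FPKM value per gene and library. Versions, annotation, strand and any spike-in scaling are not given in the sources used here. Read depth is unknown, since FPKM values hold no counts.

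Values were tested as log2(FPKM + 1) with limma 3.58.1 in R 4.3.3 (trend on, two-sided). Genes entered a fit with 1 FPKM or more in 3 or more of its libraries, and p-values were adjusted by Benjamini-Hochberg over all genes tested. Dose comparisons used the 9 libraries of a line, and comparisons between lines all 18. The relative scale divides by median-ratio size factors. Tables and promoters were read with Python 3.11.15 and pandas 2.3.3. The fit was tested on simulated data. The members and lists were chosen with earlier results of these data known.

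Given library by library were NFKB1, NFKB2, RELA, RELB, NFKBIA, TNFAIP3, BIRC3, ICAM1 and, per comparison, up to 4 members called in each direction with the smallest adjusted p. Alternatives were the relative scale, a pseudocount of 0.1, no filter, the replicate number as a block and leaving out each library, the last also on the relative scale, which was chosen after seeing the data.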

Additional observations from a re-analysis of the deposited data

Results flagged for a closer look

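For 10 of 31 members the change at 1000 nM differed between the lines by a test of the difference itself (limma, XG1 change minus AMO1 change, log2, deposited scale). The differences were 0.905 for NFKB1, 1.119 for RELA, 1.185 for NFKBIB, 1.12 for TNFAIP8, 0.791 for TNIP1, 1.039 for TNIP2 and 0.856 for IKBKB. They were -0.68 for NFKBIA, -1.361 for NFKBIZ and -0.948 for CD40. Positive calls were 7 of 31 against 32.8% of all genes, and negative calls 3 of 31 against 1.50%. On the relative scale 0 were positive against 10.1% of all genes (limma; 1 at an unadjusted p below 0.05). There, 6 were negative against 6.80%. At 100 nM the difference for NFKBIZ was -1.438, the only call, 1 of 31 against 0.860% of all genes. The differences of NFKB1, RELA and NFKBIZ passed the threshold whichever library was left out. The other calls at 1000 nM were kept in 3 (NFKBIA and CD40) to 11 (NFKBIB) of 12 refits that each leave out 1 library. The libraries labelled XG1 also differ from AMO1 in their plasma cell, erythroid, myeloid, and T and NK cell markers, and the part of this in the differences was not tested.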

How the results depend on the processing

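On the relative scale the AMO1 changes at 1000 nM turned upward for RELA (0.187), RELB (0.260), TNFAIP3 (0.275), TNIP1 (0.061), TNIP2 (0.044), BIRC3 (0.087), TRAF3 (0.183), ICAM1 (0.133) and SOD2 (0.110). Counts of members called moved on that scale to 9 higher and 2 lower in AMO1 at 1000 nM, 6 and 1 at 100 nM, and 1 and 0 between the doses. In XG1 they moved to 3 higher and 1 lower at 1000 nM and 2 and 1 at 100 nM, and for the difference between the lines to 0 positive and 6 negative at 1000 nM and 4 negative at 100 nM. With no filter there was 1 higher in AMO1 at 1000 nM, 1 higher and 1 lower at 100 nM, 0 lower between the doses, 1 lower in XG1 at 100 nM, and 4 positive differences at 1000 nM. A pseudocount of 0.1 left 0 negative differences at 100 nM, so the NFKBIZ call was lost there. With the replicate block there were 0 lower between the AMO1 doses, 1 lower in XG1 at 100 nM, and 4 positive and 1 negative differences at 1000 nM. Its adjusted p-values were 0.0694 for NFKB1 and 0.056 for TRAF2 between the AMO1 doses, 0.0689 for NFKBIE in XG1 at 100 nM, 0.0517 for TRAF3 between the lines in DMSO, and 0.0518 to 0.0764 for TNIP1, NFKBIA, IKBKB, CD40 and TNIP2 in the difference at 1000 nM, all called without it. RELB in XG1 at 1000 nM was called with it (0.0467). Same-numbered libraries correlated between -0.178 and 0.157 in their deviations, so the numbers were not taken as a pairing.

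Leaving out 1 library gave 0 to 2 higher and 13 to 18 lower in AMO1 at 1000 nM, 0 to 3 lower at 100 nM and 0 to 8 lower between the doses. In XG1 it gave 1 to 2 lower at 1000 nM, and 0 to 1 higher and 1 to 2 lower at 100 nM. Between the lines in DMSO it gave 10 to 12 higher and 11 to 14 lower, and for the difference of responses 2 to 8 positive and 1 to 3 negative at 1000 nM. The 2 higher in AMO1 at 1000 nM came without AMO1 1000 nM replicate 2, the 3 lower at 100 nM without AMO1 DMSO replicate 3, the 8 lower between the doses and the 8 positive differences without AMO1 1000 nM replicate 3, and the 1 negative difference without, for example, XG1 1000 nM replicate 2. On the relative scale the ranges were 7 to 10 higher and 1 to 2 lower in AMO1 at 1000 nM, 3 to 6 and 0 to 1 at 100 nM, 0 to 1 higher in XG1 at 1000 nM, 0 to 2 higher and 1 to 2 lower at 100 nM, 4 to 6 negative differences at 1000 nM, and 0 to 1 positive and 2 to 6 negative at 100 nM. The cause of these shifts was not tested. Of 61 member results called on the deposited scale, 9 reversed, all on the relative scale. Read depth is unknown, so the counting error of low values cannot be given.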
